A study of Mus musculus with 12 samples.

Results

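Regulatory T cells that carried transcripts of Foxp3 were described in a mouse tracheal allograft and in spleen. A cell was taken as a member when it had 500 or more detected genes, at most 20% mitochondrial transcripts, 2 or more transcripts of the CD3 genes Cd3d, Cd3e and Cd3g together, 1 or more transcripts of Foxp3, and fewer than 3 transcripts of the macrophage complement genes C1qa, C1qb and C1qc together. The members were thus chosen by measured values, their CD3, Foxp3 and C1q transcripts. This gave 145 cells, 61 among 3895 cells of the allograft and 84 among 4579 cells of the spleen, of 12630 cells in the whole series. They were compared between both sources and with the T cells of the same library that had no Foxp3 but 1 or more Cd4 transcripts, 48 in the allograft and 346 in the spleen.

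The series holds 12 mouse samples, 4 each from tracheal allografts, native tracheas and spleens, and its title places it in a study of mononuclear phagocytes and fibrosis in obliterative airway disease after transplantation. The deposited data pool the 4 samples of a source into 1 library, and no cell can be assigned to its sample. Each source is therefore 1 observation, no test between sources is possible, and every interval below covers counting error only. The allograft and the spleen also differ in library, so that tissue and library cannot be told apart. The labels name the source and, as cell type, mesenchymal progenitors for both kinds of trachea and splenocytes for the spleen; strain, sex, age, time after transplantation and treatment are not given in the sources used here, so no group is described further. The 375 T cells with CD3 transcripts in the allograft library do not match its labelled cell type.

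Regulatory T cells restrain other immune cells. Foxp3 is the transcription factor that fixes their programme. Il2ra encodes the high-affinity chain of the interleukin 2 receptor, with which these cells take up a growth factor that other T cells make, and Ctla4 encodes a receptor that binds and removes costimulatory ligands from antigen-presenting cells. Ikzf2 encodes Helios, a transcription factor frequent in regulatory T cells formed in the thymus. In peripheral tissues such cells often take on an effector state with the interleukin 33 receptor Il1rl1 and the repair factor Areg, and in transplantation they are studied as cells that can limit rejection.

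The members matched the label. In the allograft, 59 of 61 members had transcripts of at least 2 of Il2ra, Ctla4 and Ikzf2, which the choice of cells did not use, against 21 of the 48 Foxp3-negative Cd4+ T cells. In the spleen the counts were 54 of 84 members and 56 of 346 Foxp3-negative cells. Foxp3 itself, on chromosome X from 7573644 to 7595245 (mm10), chose the cells and its level is a description only: 26 allograft members had 1 Foxp3 transcript, 15 had 2 and 20 had 3 or more, against 45, 23 and 16 in the spleen. Among the allograft members with a single Foxp3 transcript, 24 of 26 had Ctla4 and 25 of 26 had Ikzf2. At the other borders of the rule, 25 allograft members and 0 spleen members had 1 or 2 C1q transcripts, and 6 and 3 further Foxp3+ T cells were left out for having 3 or more. A transcript of Cd4 was detected in 27 of 61 and 42 of 84 members, and a Cd8 transcript in 7 and 6.

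The members had a median of 3841 transcripts (unique molecular identifiers, UMIs) per cell in the allograft and 3063.5 in the spleen, and summed totals of 389234 and 352873 UMIs. A level below is the sum of a gene's UMIs over a set of cells divided by all UMIs of that set and given as counts per 1000000 (CPM), a fold is a ratio of 2 such levels with 0.5 UMI added to each, and brackets hold 95% intervals. A gene counts as measured with 20 or more UMIs over both sets in 5 or more cells, and as apart when the levels differ 2-fold or more. Where a set had 0 UMIs, the fold is a lower bound taken at 3 UMIs for the set.

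A few members carried transcripts of other cell types, and because they were large cells they weighed heavily in the sums. Markers of 6 other cell types (macrophage, neutrophil, dendritic cell, B cell, plasma cell and erythroid cell) were summed in each cell, and a cell with more than 100 such UMIs per 10000, or 1%, was called mixed. By this limit, chosen after the values were seen, 6 allograft members were mixed, with 227 to 3055 marker UMIs per 10000 and 11422 to 25730 UMIs a cell, and they held 31.4% of the UMIs of the allograft members. Of these, 4 carried mainly the antigen presentation genes H2-Ab1 and Cd74 and 2 carried mainly immunoglobulin. In the spleen, 3 mixed members held 5.91% of the UMIs. The remaining members reached at most 47.5 marker UMIs per 10000 in the allograft and 63.1 in the spleen. Results are given for all members unless stated otherwise, and values without mixed cells stand beside results that depended on them. The genes of these 6 marker lists defined the mixed cells. Their lower levels once mixed cells were left out follow from the limit and are a description only.

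**Figure D1:**
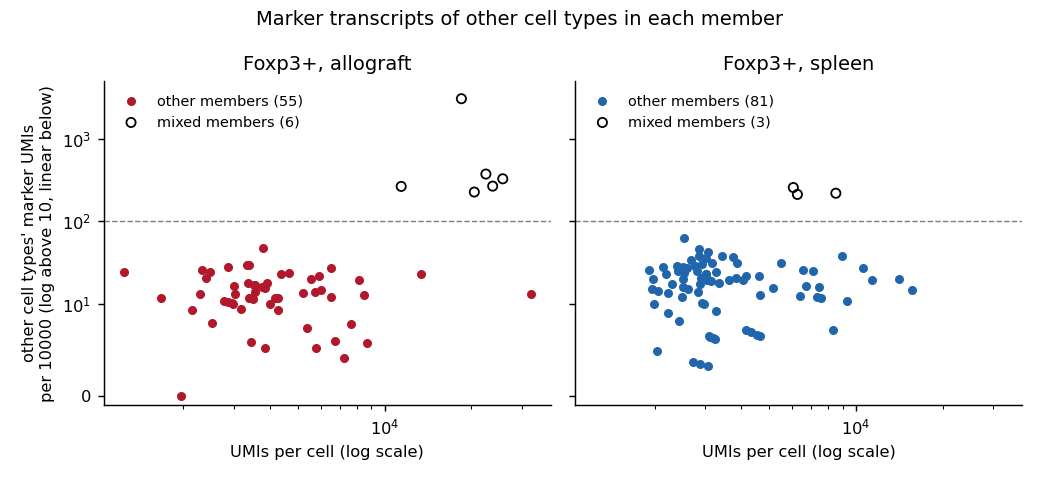
Marker UMIs of other cell types per 10000 UMIs of a cell against the UMIs of that cell, for each Foxp3+ T cell of the allograft (61, left) and spleen (84, right); both axes are logarithmic, the vertical one linear below 10, and the dashed line marks 100 per 10000. The 6 mixed allograft members stand above the line at 11422 to 25730 UMIs, and the 3 mixed spleen members at 212 to 257 marker UMIs per 10000.

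Foxp3+ cells were a larger share of T cells in the allograft library. They were 61 of 375 CD3+ T cells in the allograft, or 16.3% (exact Clopper-Pearson 95% interval 12.7 to 20.4), and 84 of 1163 in the spleen, or 7.22% (5.80 to 8.86). The shares rest on the Foxp3 and CD3 UMIs that chose the members and are a description of these libraries. After every cell was thinned to 1500 UMIs the shares were 9.42% (29 of 308) and 4.54% (46 of 1014), with 13 and 8 shallower T cells left out, and at 3000 UMIs they were 11.1% and 4.26%. Relative to Foxp3+ and Foxp3-negative Cd4+ T cells together, the members were 56.0% in the allograft and 19.5% in the spleen. This denominator required a Cd4 UMI of the Foxp3-negative cells only, and 27 of 61 and 42 of 84 members had one. Foxp3-negative cells whose Cd4 went undetected are thus missing from it, and the share is not that among all Cd4+ T cells. As a background, a Foxp3 UMI was found in 4 of 1972 allograft cells with macrophage markers (median 6854.5 UMIs) and in 2 of 2178 spleen cells with B cell markers (median 4812 UMIs). Among Cd8+ T cells without Cd4 it was found in 5 of 143 in the allograft, or 3.50% (1.14 to 7.97), and in 3 of 388 in the spleen, or 0.773% (0.160 to 2.24). These 5 and 3 cells meet the rule and are themselves members, so this share is not a background. How the cells were selected before loading is not given in the sources used here, and such a step can set these shares.

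**Figure D2:**
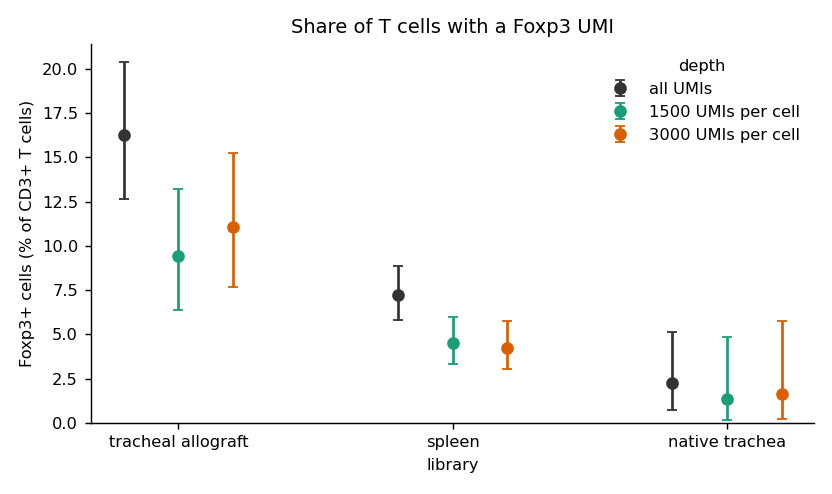
Share of CD3+ T cells with a Foxp3 UMI in the 3 libraries, from all UMIs and after thinning each cell to 1500 or 3000 UMIs; points are percentages and bars are exact 95% intervals, which cover counting error only. The allograft share is 16.3% against 7.22% in spleen and 2.23% in native trachea.

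Within the spleen, where most T cells had no Foxp3, the members carried the known regulatory T cell genes at several times the level of their Foxp3-negative Cd4+ neighbours. Il2ra was at 93.5 CPM in the members and 11.1 CPM in the Foxp3-negative cells, 8.35-fold (4.62 to 15.9). Ctla4 was at 300 and 49.2 CPM, 6.10-fold (4.53 to 8.27). Ikzf2 was at 1372 and 391 CPM, 3.51-fold (3.11 to 3.96). The 3 intervals lie above 2-fold. Higher as well were the costimulatory receptors Tnfrsf4 (OX40, 4.82-fold) and Tnfrsf18 (GITR, 4.12-fold), Izumo1r, the folate receptor family member FR4 (2.37-fold), and Ikzf4, the Helios relative Eos (9.14-fold). Of 13 measured genes of a list of 17 regulatory T cell identity genes, 12 were 2-fold or more higher and 0 lower, at a median log2 ratio of 2.04 against 0.11 over all measured genes. Foxp3 itself is 1 of the 12, by the choice of cells. Among all 7930 measured genes, 439 (5.54%) lay above the Foxp3-negative cells by 2-fold or more and 371 (4.68%) below them. Without mixed cells 448 (5.91%) were higher and 295 (3.89%) lower.

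The gene furthest above the Foxp3-negative spleen cells by the naming rule was Klrg1, an inhibitory receptor of effector lymphocytes, at 85.0 against 1.23 CPM, 56.3-fold (17.5 to 597). It was concentrated in few cells: 8 of 84 members had a Klrg1 UMI, and 1 of them held 46.7% of the 30 UMIs. The integrin chain Itgae (CD103) and the transcription factor Prdm1 (Blimp-1) were each at 51.0 against 4.92 CPM, 10.0-fold (4.29 to 27.6), and Cish, a feedback inhibitor of interleukin 2 signalling, was at 82.2 against 9.83 CPM, 8.24-fold (4.39 to 16.5). The opioid precursor Penk (5.75-fold), the protease inhibitor Serpina3g (5.28-fold), the amino acid transporter Slc7a10 (8.98-fold) and the sarcomere gene Neb (9.39-fold) completed the 12 genes named as higher together with Ikzf4, Il2ra, Ctla4 and Tnfrsf4. Lrrc32 (GARP), which holds latent TGF-beta on the cell surface, had 15 UMIs in the members and 1 in the 346 Foxp3-negative cells, too few to count as measured. Of the tissue and effector list, 11 of 20 measured genes were higher and 1, the chemokine receptor Cxcr6, lower, at a median log2 ratio of 1.22. 

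Genes known to be low in regulatory T cells, and genes of resting T cells, were lower in the spleen members than in the Foxp3-negative cells. Igfbp4 was at 2.83 against 141 CPM, 33.2-fold lower (8.83 to 1970), with 1 UMI in the members. Cd40lg, with which helper T cells activate B cells, was at 2.83 against 50.4 CPM, 11.9-fold lower (3.1 to 711). Tnfsf8 (CD30 ligand) was at 48.2 against 276 CPM, 5.57-fold lower, and Themis, a regulator of T cell receptor signalling, at 14.2 against 119 CPM, 7.63-fold lower. The chromatin organiser Satb1, known to be held low in regulatory T cells, was at 48.2 against 196 CPM, 3.96-fold lower, and 6.38-fold lower without mixed cells. The lymph node homing receptor Ccr7 was 2.82-fold lower and the transcription factor Tcf7, which keeps T cells in a resting or memory state, 2.43-fold lower. Of 9 measured genes of a list known to be low in regulatory T cells, 8 were 2-fold or more lower, and of 17 resting genes 8 were lower and 0 higher. Of 8 measured helper lineage factors and cytokines 3 were lower (Cd40lg, Il21 and Ifng) and 1, Ahr, higher, at a median log2 ratio of 0.17. The rule also named Hbb-bs, Hbb-bt, Hba-a1, Hba-a2, Car2, Cd24a, Ctse and Blvrb as lower, which are genes of red blood cell precursors or rise in them. In the Foxp3-negative set 2 mixed cells carried 3383 and 672 haemoglobin UMIs. The haemoglobin genes were among the markers that defined mixed cells, and Car2, Cd24a, Ctse and Blvrb were not. Without mixed cells none of these 8 genes was 2-fold lower (Car2, the lowest, was at 3.01 against 8.24 CPM). In their place the rule then named Dapl1, Satb1, Gpm6b, Txk, Klf2, Pecam1, Tcf7 and Nsg2, with Dapl1 at 0 against 52.2 CPM, at least 5.78-fold lower.

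In the allograft, members and Foxp3-negative Cd4+ T cells were compared in the same genes. Whether the separation differed from that in the spleen was not tested. Il2ra was at 367 CPM in the members and 86.9 CPM in the Foxp3-negative cells, 4.11-fold (2.51 to 7.59). Ctla4 was at 696 and 522 CPM, 1.33-fold (1.05 to 1.70), and Ikzf2 at 902 and 571 CPM, 1.58-fold (1.27 to 1.98), or 2.08-fold without mixed cells. Tnfrsf18 was at 696 and 446 CPM and Tnfrsf4 at 1305 and 864 CPM, both less than 2-fold apart. Of 15 measured identity genes 5 were 2-fold or more higher and 0 lower, at a median log2 ratio of 0.74, and Foxp3 is again 1 of the 5 by the choice of cells. The other 4 were Il2ra, Itgae, Ikzf4 (2.57-fold) and Lrrc32 (2.48-fold), of which Itgae was no longer measured without mixed cells. Since 26 of the 61 members were found by a single Foxp3 UMI, a cell with none is not shown to lack the gene, and how many Foxp3-negative cells were of this kind was not tested. Over all 4194 measured genes 309 (7.37%) were higher in the members and 234 (5.58%) lower. Without mixed cells 201 of 3522 (5.71%) were higher and 123 (3.49%) lower, and with totals that leave out mitochondrial and ribosomal genes 276 were higher and 303 lower.

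Among the suppressive mediators, the ways in which regulatory T cells are known to act on others, 6 of 11 measured genes were above their Foxp3-negative neighbours by 2-fold or more in the allograft and 0 were below. The integrin chain Itgb8, which releases active TGF-beta, was at 82.2 against 10.9 CPM, 6.15-fold (1.93 to 65.1), from 2 UMIs in the Foxp3-negative cells. The cytotoxic protease Gzmb was at 293 against 70.6 CPM, 4.01-fold (2.33 to 8.02). Areg was at 213 against 54.3 CPM, 3.76-fold (2.03 to 8.48). The secreted fibrinogen-like protein Fgl2 was at 252 against 65.2 CPM, 3.73-fold (2.11 to 7.73). Tnfrsf9 (4-1BB), a receptor induced by T cell receptor stimulation, was at 1033 against 283 CPM, 3.62-fold (2.73 to 4.98), and Il1rl1 at 221 against 97.8 CPM, 2.21-fold (1.35 to 3.99). The difference in Il1rl1 was under 2-fold with 2 or more Foxp3 UMIs (log2 ratio 0.98), with a Cd4 UMI required (0.69) and without cells with a C1q UMI (0.53). Of 22 measured tissue and effector genes 6 were higher (Areg, Tnfrsf9, Il1r2, Nfil3, Il1rl1 and Il10) and 0 lower, and without mixed cells 7 of 19 were, with Klrg1 and Lgals1 in addition and Il10 no longer among them. Rora was at 835 and 1049 CPM and Icos at 701 and 935 CPM, less than 2-fold apart.

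With all members, the genes that the rule named as higher in the allograft members included Ccl6, Il1b, Cxcl2, Basp1, Cst3, Cd74, Plbd1, Naaa and H2-Aa, genes of myeloid and antigen-presenting cells. Without mixed cells Cxcl2 was 1.95-fold and Cd74 1.25-fold higher, Cst3 was 1.22-fold and H2-Aa 3.41-fold lower, and the other 5 were no longer measured. The rule then named, beside Tnfrsf9, Gzmb and Il2ra, the tubulin regulator Stmn1 (251 against 5.76 CPM), Tmem158 (139 against 17.3 CPM), Cd8b1 (86.2 against 5.76 CPM), Cmtm7, the DNA topoisomerase Top2a, the serine synthesis enzyme Phgdh, the intermediate filament gene Vim, the endocytosis gene Snx9 and the tubulin Tubb5. Stmn1, Top2a and Tubb5 are proliferation genes, as are Pclaf and Hist1h1b, which the rule named with all members. Stmn1 and Top2a rested on few cells: 6 members without mixed cells had Stmn1, and the deepest remaining member, at 32183 UMIs, held 36 of the 54 Top2a UMIs of all allograft members. Of the proliferation list 9 of 13 measured genes were higher and 0 lower with all members (median log2 ratio 1.61 against -0.05 over all genes), and 1 of 6 was higher without mixed cells and that deepest member (median 0.49). Cells with Mki67 or Top2a were 10 of 61 members and 8 of 48 Foxp3-negative cells in the allograft, and 15 of 84 and 36 of 346 in the spleen. Cd8b1 encodes a chain of the Cd8 receptor; the Foxp3-negative set was required to have a Cd4 UMI and the members were not.

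Among the genes named as lower in the allograft members than in their Foxp3-negative neighbours were members of the TNF ligand family. Tnfsf8 was at 36.0 against 429 CPM, 11.6-fold lower (6.71 to 22.8), and Tnfsf11 (RANKL) at 15.4 against 201 CPM, 12.2-fold lower (5.46 to 37.8). Tcf7 was at 7.71 against 163 CPM, 18.4-fold lower (6.58 to 108), with 3 UMIs in the members. Tbc1d4, a regulator of glucose transporter traffic, was at 36.0 against 245 CPM, 6.64-fold lower (3.66 to 13.4), and 15.5-fold lower without mixed cells. The integrin Itgb1 was at 128 against 456 CPM, the phosphatase Dusp10 at 64.2 against 272 CPM, and Ramp3, a partner of the receptors for adrenomedullin and related peptides, at 360 against 1027 CPM. Mfsd6, Arap2 and Klf3 were 6.12-, 4.43- and 4.30-fold lower. The rule also named Lyz2 and Ms4a6c, macrophage genes carried by 1 mixed Foxp3-negative cell with 207 macrophage UMIs; without mixed cells Lyz2 was at 78.7 against 86.4 CPM. It then named Fosb, Commd8, Btg2 and Trps1, at 5.01-, 6.66-, 3.19- and 2.82-fold lower. Of the helper lineage list 3 genes were measured, with 1, Ahr, higher and 0 lower, and without mixed cells 0 were apart.

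**Figure D3:**
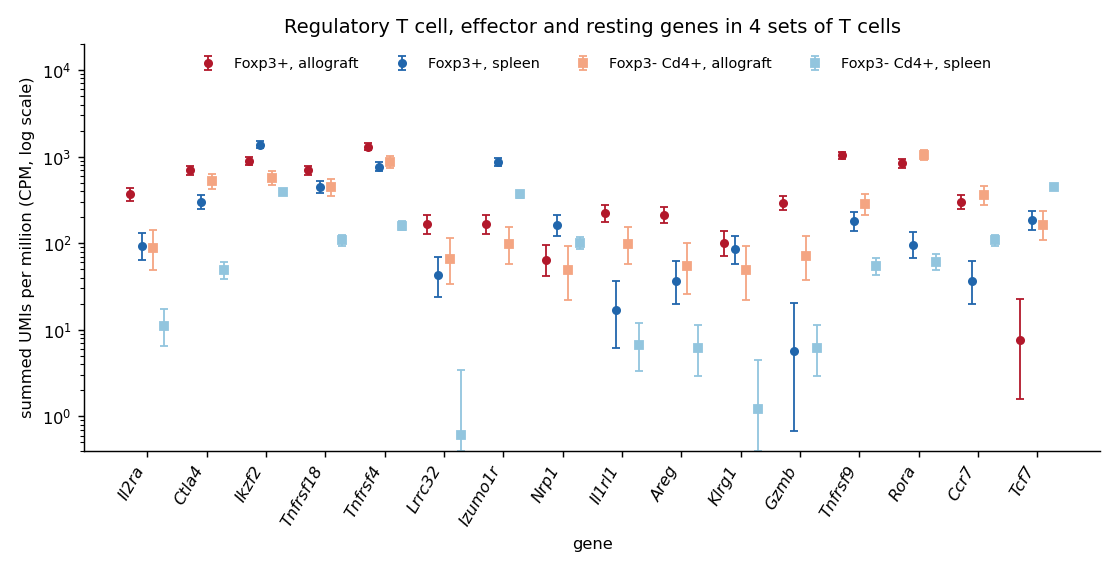
Summed level (CPM, log axis cut at 0.4) of 16 genes in Foxp3+ and Foxp3- Cd4+ T cells of the allograft and spleen, all cells of each set; points are the levels of 1 library each and bars exact Poisson 95% intervals. Il2ra is highest in the allograft members at 367 CPM, Ikzf2 and Izumo1r in the spleen members, and Tcf7 lowest in the allograft members at 7.71 CPM.

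Between the tissues, the members of the allograft had more Il2ra and Ctla4 and less Izumo1r than those of the spleen. Il2ra (chromosome 2 from 11642807 to 11693193, mm10) was at 367 and 93.5 CPM, 3.88-fold (2.68 to 5.92); 40 of 61 and 14 of 84 members had a UMI, and 24 of 60 and 7 of 84 after thinning to 1500 UMIs. For comparison, a UMI of Il2ra was found in 7 of 1972 allograft cells with macrophage markers and 14 of 2178 spleen cells with B cell markers. Ctla4 (chromosome 1 from 60887000 to 60915832) was at 696 and 300 CPM, 2.31-fold (1.84 to 2.93). Ikzf2 (chromosome 1 from 69531214 to 69687245) was at 902 and 1372 CPM, 1.52-fold lower (1.32 to 1.75), and 1.15-fold lower without mixed cells. Lrrc32 was at 167 and 42.5 CPM, 3.83-fold (2.22 to 7.42), and Socs2 at 79.6 and 14.2 CPM, 5.19-fold. Izumo1r was at 167 and 867 CPM, 5.16-fold lower (3.96 to 6.90), and Nrp1, a semaphorin receptor frequent on thymus-derived regulatory T cells, at 64.2 and 162 CPM, 2.49-fold lower (1.55 to 4.20). Of 15 measured identity genes 4 were higher and 2 lower, at a median log2 ratio of 0.24 against -0.03 over all 5144 measured genes, of which 700 (13.6%) were higher and 609 (11.8%) lower. Summed per cell, the identity list had a median of 66.7 UMIs per 10000 in the allograft members (10.3 to 257) and 58.7 in the spleen members (9.40 to 176), and these ranges overlap. The shifts in Il2ra, Ctla4 and Izumo1r were not particular to the members. Foxp3-negative Cd4+ T cells of the allograft and spleen had 86.9 and 11.1 CPM of Il2ra and 522 and 49.2 CPM of Ctla4. Their Izumo1r was at 97.8 and 366 CPM. Ikzf2 went the other way than in the members, at 571 and 391 CPM. Of 12 measured identity genes 6 were higher in the Foxp3-negative cells of the allograft and 1, Izumo1r, lower.

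With totals that leave out mitochondrial and ribosomal genes, the split of the same comparison was 589 higher and 802 lower, and the median over all genes moved by -0.15 on the log2 scale. Without mixed cells it was 594 of 4471 (13.3%) higher and 444 (9.93%) lower. In the comparison of the Foxp3-negative Cd4+ T cells of both tissues, 1153 of 7697 genes (15%) were higher in the allograft and 885 (11.5%) lower, or 889 and 1205 with the same totals. In the spleen comparison of members with Foxp3-negative cells these totals gave 333 higher and 446 lower.

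The tissue and effector list was higher in the allograft members. Of 23 measured genes 12 were 2-fold or more higher and 1, the transcription factor Batf (82.2 against 326 CPM, 3.92-fold lower), was lower, at a median log2 ratio of 1.14. Il1rl1 (chromosome 1 from 40429570 to 40465415) was at 221 and 17.0 CPM, 12.1-fold (5.73 to 36.4), found in 17 of 61 and 2 of 84 members, or 11 of 60 and 2 of 84 after thinning. Areg (chromosome 5 from 91139599 to 91148432) was at 213 and 36.8 CPM, 5.61-fold (3.21 to 11.3), found in 23 and 6 members, or 14 of 60 and 0 of 84 after thinning. The background in allograft cells with macrophage markers was 59 of 1972 cells for Il1rl1 and 85 for Areg. Rora, a nuclear receptor of tissue lymphocytes, was at 835 and 96.4 CPM, 8.55-fold (6.08 to 12.7). Tnfrsf9 was at 1033 and 179 CPM, 5.75-fold (4.43 to 7.67), and the lung and liver homing receptor Cxcr6 at 116 and 17.0 CPM, 6.35-fold (2.89 to 19.5). The activation genes Icos (2.52-fold), Cd44 (3.38-fold), Id2 (4.59-fold), Nfil3 (3.86-fold), Rgs1 (2.44-fold) and Lgals1 (2.20-fold) were higher as well. Klrg1 was at 100 and 85.0 CPM, 1.17-fold (0.714 to 1.96), and Prdm1, Maf and Gata3 were less than 2-fold apart. The Foxp3-negative Cd4+ T cells of the same libraries had 97.8 and 6.76 CPM of Il1rl1, 54.3 and 6.15 CPM of Areg, 1049 and 60.8 CPM of Rora, and 283 and 54.1 CPM of Tnfrsf9 and were likewise higher in the allograft. In these cells 13 of 18 measured genes of the list were higher and 1, Batf, lower, at a median log2 ratio of 2.08. Over all measured genes 13.6% were higher in the members and 15% in the Foxp3-negative cells.

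Per cell, the tissue and effector genes summed to a median of 104 UMIs per 10000 in the allograft members (16.4 to 316) and 40.4 in the spleen members (3.52 to 180). The resting genes summed to 16.9 (2.71 to 127) and 14.8 (0 to 62.1). Detection of 5 effector genes (Il1rl1, Areg, Klrg1, Gzmb and Il10) was uneven among the cells: 44 of 61 allograft members had at least 1 of them and 26 had 2 or more, against 12 and 6 of 84 spleen members. In the allograft 10 members had both Il1rl1 and Areg, 7 had Il1rl1 without Areg and 13 had Areg without Il1rl1. Gzmb and Areg were found together in 9 members, Gzmb without Areg in 12 and Areg without Gzmb in 14, while 2 members had all 5. These counts were not thinned, and the median depths were 3841 and 3063.5 UMIs. Without mixed cells 38 of 55 and 12 of 81 members had at least 1 of the 5.

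**Figure D4:**
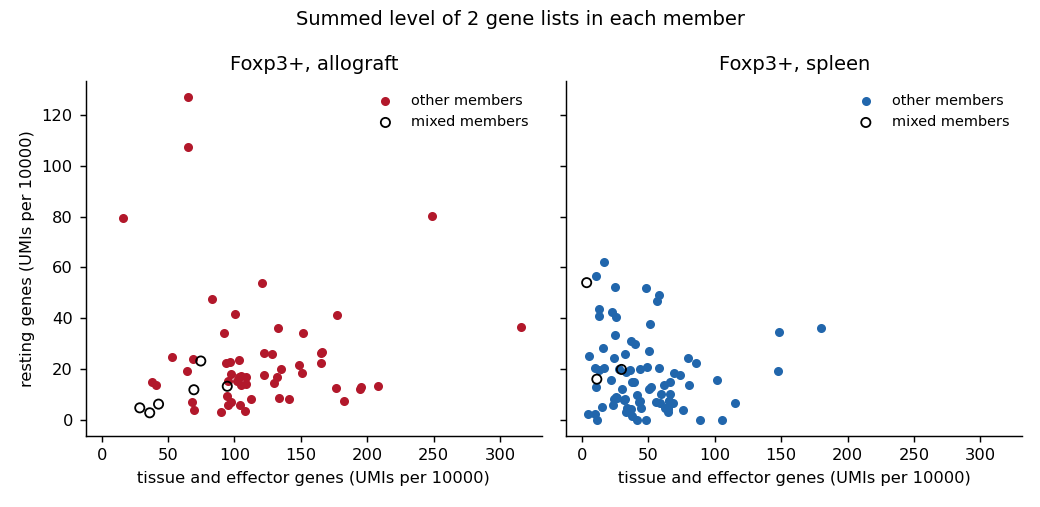
Summed UMIs per 10000 of the resting list (vertical) against the tissue and effector list (horizontal) in each Foxp3+ T cell of the allograft (left) and spleen (right); open circles are mixed members. The allograft members have a median of 104 on the horizontal axis and the spleen members 40.4, while the vertical medians are 16.9 and 14.8.

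Suppressive mediators were likewise higher in the allograft members, with 7 of 11 measured genes 2-fold or more higher and 0 lower, at a median log2 ratio of 1.23. Gzmb (chromosome 14 from 56258838 to 56262260) was at 293 and 5.67 CPM, 41.5-fold (14.0 to 432), with 2 UMIs in 1 spleen member; 21 of 61 allograft members had it, 16 of 60 after thinning, against 17 of 1972 allograft cells with macrophage markers. Fgl2 was at 252 and 34.0 CPM, 7.14-fold (4.05 to 14.8), and Tgfb1 at 426 and 181 CPM, 2.34-fold (1.75 to 3.19). The anti-inflammatory cytokine Il10 was at 61.7 and 5.67 CPM, 8.88-fold (2.70 to 95), from 10 members and 1 member; without mixed cells it was no longer measured. Itgb8 was at 82.2 and 59.5 CPM, 1.37-fold. In the Foxp3-negative Cd4+ T cells 5 of 11 measured genes of this list were higher in the allograft and 2 lower. Their median log2 ratio was 0.70. Gzmb was at 70.6 and 6.15 CPM in these cells, and at 377 and 3.52 CPM in the Cd8+ T cells. Over all measured genes 13.6% were higher and 11.8% lower in the members, and 15% and 11.5% in the Foxp3-negative cells.

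Chemokine receptors, which guide cells into tissues, included several that were higher in the allograft members. Of 9 measured genes 6 were higher and 1, Ccr6, lower (2.80-fold, and 1.79-fold without mixed cells), at a median log2 ratio of 2.21. With a minimum of 1 UMI 13 genes were measured, 6 higher and 3 lower, and the median was 0.34. Ccr2 and Cxcr4 were each at 229 and 48.2 CPM, 4.64-fold (2.80 to 8.51), and Ccr1 was 11.8-fold higher but no longer measured without mixed cells. Ccr7, which leads T cells into lymph nodes, was at 298 and 36.8 CPM, 7.82-fold (4.55 to 15.6), and was found in 24 of 61 and 7 of 84 members, or 13 of 60 and 2 of 84 after thinning. Of the allograft members with Ccr7, 11 also had Gzmb. Cxcr3 was at 123 and 119 CPM, 1.03-fold (0.670 to 1.61).

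The resting list moved in both directions. Tcf7 (chromosome 11 from 52252371 to 52283014) was at 7.71 and 184 CPM, 20.6-fold lower in the allograft members (7.82 to 119), with 3 UMIs in 2 of 61 cells. Its relative Lef1 was at 23.1 and 99.2 CPM, 4.12-fold lower (2.02 to 10.1), and the survival gene Bcl2 at 23.1 and 125 CPM, 5.17-fold lower (2.60 to 12.6). Klf2, which maintains circulation through lymphoid organs, was at 126 and 309 CPM, 2.44-fold lower, and 1.63-fold lower without mixed cells. Satb1, on the other side, was at 242 and 48.2 CPM, 4.90-fold higher (2.97 to 8.97), and S1pr1, the receptor for exit from tissue, at 110 and 76.5 CPM, 1.43-fold (0.872 to 2.43). Of 13 measured genes 2 were higher and 7 lower at a median log2 ratio of -1.17, but without mixed cells 3 were higher and 5 lower at -0.33.

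Components that receive the interleukin 2 signal were higher in the allograft members beside Il2ra. Stat5a and Stat5b, the transcription factors of this pathway, were at 164 and 70.8 CPM (2.29-fold, 1.44 to 3.85) and 172 and 53.8 CPM (3.14-fold, 1.90 to 5.64). The kinase Pim1, a target of the pathway, was at 835 and 258 CPM, 3.23-fold (2.56 to 4.13). The shared chains Il2rb (1.98-fold) and Il2rg (1.21-fold lower) were less than 2-fold apart. Of 14 measured genes of this list 6 were higher and 2, Bcl2 and the kinase Jak3, lower; without mixed cells 8 of 13 were higher, with Il2rb and Cish in addition, and Bcl2 alone lower. Among TNF receptors and the NF-kB pathway, 6 of 16 were higher and 0 lower, with Nfkb1 at 750 and 224 CPM (3.34-fold, 2.61 to 4.35) and Nfkb2 at 146 and 62.3 CPM (2.32-fold). Of the TGF-beta list 5 of 12 were higher and 1, the receptor Tgfbr1, lower. Skil, a feedback inhibitor of this pathway, was at 301 and 68.0 CPM, 4.35-fold (2.83 to 7.17). The Foxp3-negative Cd4+ T cells of the allograft were also above those of the spleen in these lists. Of their interleukin 2 genes 8 of 14 were higher and 1 lower. For TNF receptors and NF-kB 13 of 17 were higher and 0 lower, and for TGF-beta 7 of 12 and 1. The list medians in log2 were 1.89, 1.85 and 1.45 in these cells, beside 0.94, 0.84 and 0.60 in the members. Over all measured genes 15% were higher in these cells and 13.6% in the members.

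The other lists are read against all genes, of which 13.6% were higher and 11.8% lower. Interferon-induced genes had 2 of 23 higher and 1 lower at a median log2 ratio of -0.14 (1 of 22 higher and 1 lower without mixed cells), and of the 15 genes of the T cell receptor complex and its kinases 0 were higher and 3 lower (Trbc1, Lck and Cd3d), of which none was 2-fold lower without mixed cells. Of the proliferation list 4 of 16 were higher, all DNA replication genes (Mcm3, Mcm5, Mcm6 and Pcna), at a median log2 ratio of 0.32. Without mixed cells and the deepest allograft member 0 of 10 were higher and 4 lower, at a median of -0.75. Over all members Mki67 was at 95.1 and 116 CPM and Top2a at 139 and 128 CPM, less than 1.5-fold apart. Of 16 adhesion genes 2 were higher and 3 lower, and without mixed cells 3 higher and 2 lower. Immediate early genes, which can move with tissue dissociation, had 1 of 15 higher, Atf3, and 4 lower at a median of 0.37, and without mixed cells 0 of 14 higher and 4 lower at -0.36. Among the lower genes were Jun (56.5 and 264 CPM, 4.58-fold lower) and Hspa1b (5.14 and 96.4 CPM, 15.2-fold lower); their part in the other results was not tested.

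Beyond the lists, the rule picked the genes with the most extreme ratios. Without mixed cells it named 12 genes as higher in the allograft members, and their levels over all members were as follows. Lmna, the nuclear lamina protein (chromosome 3 from 88480147 to 88509956), was at 861 and 14.2 CPM, 55.3-fold (25.8 to 188). Odc1, the first enzyme of polyamine synthesis, was at 1978 and 102 CPM, 19.1-fold (13.9 to 27.9), and was found in 61 of 61 and 23 of 84 members. Dgat1, which makes storage lipid, was at 493 and 17.0 CPM, 26.8-fold (13.1 to 80.0), or 40.6-fold without mixed cells. Ramp3 was at 360 and 8.50 CPM, 36.4-fold (14.2 to 208), and the cathepsin inhibitor-like gene Ctla2a at 570 and 28.3 CPM, 19.2-fold. The activator protein 1 member Fosl2 was at 244 and 5.67 CPM, 34.6-fold (11.6 to 361). The aspartate aminotransferase Got1, the endosomal sorting gene Vps37b and Dennd4a were 18.9-, 14.7- and 14.3-fold higher. Irs2, an adaptor of insulin signalling, and the transcription factor Ets2 had no UMI in the spleen members; Irs2 was at least 13.9-fold higher and Ets2 at least 15.7-fold. Gzmb completes the 12. With all members the rule also named Il1b, Cxcl2, Cd14, Basp1 and Ly6c2, of which Il1b had 190 UMIs in all allograft members and 3 without the mixed ones, and of which Cxcl2 (6.45-fold) and Ly6c2 (22.8-fold) were still measured without them.

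Lower in the allograft members was Clec2i, a lectin-like ligand, with no UMI against 108 CPM in the spleen members, at least 14.0-fold, or at least 8.57-fold without mixed cells. Slamf6, a receptor of lymphocyte contact, was at 25.7 and 241 CPM, 8.98-fold lower (4.86 to 20.3). Id3, an inhibitor of E proteins, was at 5.14 and 90.7 CPM, 14.3-fold lower (4.5 to 152), with 2 UMIs in the allograft. Tespa1, a T cell receptor signalling gene, was 10.6-fold lower, the related lectin Clec2d 6.25-fold lower, and Nav2 9.19-fold lower. Bicd1 had no UMI against 56.7 CPM, at least 7.35-fold lower, and Ercc6l2 and Art2b were 13.9- and 10.7-fold lower. Without mixed cells the rule named also Tbc1d4, Ngly1, Evl and Jun. Tbc1d4 was at 36.0 and 230 CPM, 6.20-fold lower, or 13.8-fold without mixed cells, whereas the Foxp3-negative Cd4+ T cells had 245 CPM in the allograft and 289 CPM in the spleen. The sarcomere gene Ttn was at 28.3 and 247 CPM in the members, 8.39-fold lower (4.64 to 18.1), and at 65.2 and 63.9 CPM in the Foxp3-negative cells. The difference between members and Foxp3-negative cells in these 2 genes was not tested.

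**Figure D5:**
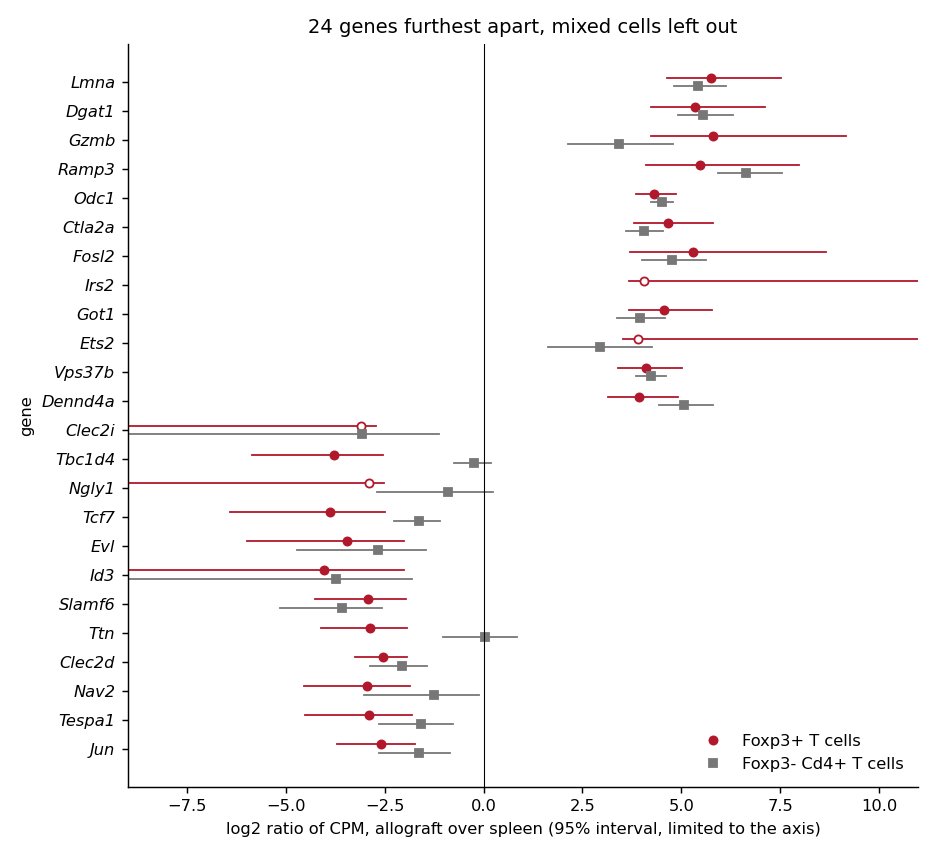
Log2 ratio of CPM, allograft over spleen, for the 12 genes named on each side without mixed cells, in Foxp3+ T cells (circles) and Foxp3- Cd4+ T cells (squares); lines are 95% intervals limited to the axis and open circles are bounds where 1 set had no UMI. Lmna, Dgat1, Ramp3 and Odc1 lie to the right in both sets, while Tbc1d4 and Ttn lie left of -2 in the members and near 0 in the Foxp3-negative cells; Irs2 has no square because it was not measured in the Foxp3-negative cells.

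Several of these genes were also at higher levels in other lymphocytes of the allograft. Lmna was at 755 CPM in the Foxp3-negative Cd4+ T cells, 873 CPM in the Cd8+ T cells and 726 CPM in the B cells of the allograft, against 30.7, 5.71 and 5.02 CPM in those of the spleen. Odc1 was at 2348, 997 and 776 CPM against 131, 43.9 and 111 CPM. Dgat1 and Ramp3 followed in the T cells, at 717 and 1027 CPM in the Foxp3-negative Cd4+ set and 486 and 312 CPM in the Cd8+ set. The same sets of the spleen had 14.8 and 9.22 CPM, and 8.79 and 2.20 CPM. In the B cells Dgat1 and Ramp3 were at 38.8 and 22.2 CPM in the allograft, against 10.0 and 0.837 CPM in the spleen. In the allograft B cells 1 UMI is 5.54 CPM. Tcf7 was at 163 CPM in the Foxp3-negative Cd4+ T cells of the allograft and 450 CPM in those of the spleen, and at 113 and 339 CPM in the Cd8+ T cells.

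Transcripts typical of macrophages were detected in the members. Values without mixed cells and without cells with a C1q UMI are given among the alternatives. Beyond these, their part in the results was not tested. Apoe was at 252 CPM in the allograft members, 1.22% of its level in the 1972 cells with macrophage markers, and C1qa, which the rule limited, at 0.793%. Lyz2 was at 3.21%, and at 78.7 CPM without mixed cells. Over the 9 macrophage markers the members summed to a median of 3.71 UMIs per 10000 (0 to 24.9) in the allograft and 0 (0 to 4.95) in the spleen, against 342 in the macrophage-marker cells. Lmna in the members was at 62.5% of its level in those cells, Ets2 at 85.4% and Fgl2 at 66.2%, while Odc1, Gzmb, Il1rl1, Tnfrsf9, Dgat1 and Ramp3 were higher in the members than in them. Of the B cell markers 3 of 4 measured were lower in the allograft members (Ighm, Ms4a1 and Cd79a), and without mixed cells Ighm alone was measured and was lower. The 3 plasma cell markers Jchain, Mzb1 and Igkc were higher with all members, which include mixed cells with 5528 and 706 plasma cell UMIs; without mixed cells Igkc alone was measured and was lower, at a log2 ratio of -1.34. Of the natural killer cell markers Tyrobp and Klrk1 were higher and 3 were not measured, and without mixed cells Klrk1 alone was measured and was higher. The lists of fibroblast, chondrocyte, erythroid and thymocyte markers had 0 measured genes between the members of both tissues.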

How the data were processed

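Transcripts of single cells were counted from their 3' ends (10x, chemistry version 3), and 1 matrix per source was deposited. The deposited values are raw counts of UMIs per gene and barcode, made with Cell Ranger 3.1.0 on mm10, per the submitters' processing notes; annotation release and filters were not given in the sources used here. Of 31053 genes in the table, 31011 were placed in GENCODE M21, the source of the positions.

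Cells were chosen by the stated thresholds, and UMIs were summed per set. Levels carry exact Poisson intervals, folds exact conditional binomial intervals and shares exact Clopper-Pearson intervals at 95%, all for counting error only (numpy 2.4.6, scipy 1.17.1, pandas 2.3.3). With 1 library a source there is no test. The members, gene lists and markers were chosen with earlier results of these data known. Named genes were, per comparison, the 12 highest and 12 lowest ratios ranked by the interval bound nearest 1, among genes 2-fold or more apart with at least 50 CPM and 15 UMIs in 5 cells of the higher set. Mitochondrial, ribosomal protein, immunoglobulin, T cell receptor segment and unnamed genes and those of the rule were left out of this ranking; list and marker genes were added.

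Doublets were called with scrublet (scanpy 1.11.5), which marked 0.950% of allograft and 0.131% of spleen cells where 3.69% and 3.88% were expected, and no member. It had thus not worked and was used only as an alternative. Shared barcodes between libraries were 4, 4 and 7 for the 3 pairs, with 0 members among them. Alternatives changed the thresholds, cell filter, scaling, depth and count minimum. The scripts were tested on simulated data. Some members of the gene lists are counted with their list but not reported here by name.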

Additional observations from a re-analysis of the deposited data

Results flagged for a closer look

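The native trachea library was in no comparison, yet 5 of its 224 CD3+ T cells had a Foxp3 UMI by the same rule, or 2.23% (exact Clopper-Pearson 95% interval 0.729 to 5.13). They are listed because a signal was seen in data outside the comparisons. Of these 5 cells, 2 were mixed by the limit of 100 marker UMIs per 10000. In the same library a Foxp3 UMI was found in 2 of 1738 cells with macrophage markers. After thinning to 1500 UMIs the share was 1.36% (2 of 147).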

How the results depend on the processing

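No paired analysis was possible because the deposited matrices pool the samples of a source and cells cannot be mapped to samples; leaving out replicates could not be run for the same reason. Values run from the allograft to the spleen, or from members to Foxp3-negative Cd4+ T cells, and the cause of a change was not tested unless named.

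The share of Foxp3+ cells among CD3+ T cells moved to 9.33% and 3.35% with 2 or more Foxp3 UMIs, 7.2% and 3.61% with a Cd4 UMI required, 23.6% and 10.3% without cells with a Cd8 UMI, 9.42% and 4.54% after thinning to 1500 UMIs, 11.1% and 4.26% at 3000 UMIs, and 56.0% and 19.5% with Foxp3+ and Foxp3-negative Cd4+ T cells as denominator. The last denominator required a Cd4 UMI of the Foxp3-negative cells only. The allograft share was the higher in each of these settings.

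The number of genes 2-fold or more apart moved with the settings, and so did the number of genes measured. For members of allograft against spleen 1309 of 5144 measured genes (25.4%) were apart, and 830 of 3256 (25.5%) with a Cd4 UMI required. With thinning the number was 494 for this comparison, 137 for allograft members against Foxp3-negative cells, 537 for the same in the spleen and 1133 for Foxp3-negative cells between tissues. With a minimum of 50 UMIs these were 532, 170, 298 and 1250, and with 1 UMI 3089, 2424, 2072 and 3541. With 10 UMIs the first and second were 2115 and 1105. The second, 543, was 314 without cells above the 95th percentile of UMIs, 324 without mixed cells and 287 without the deepest remaining member as well. Both comparisons between tissues stayed at 22.4% to 29.3% of the genes measured in these settings. For allograft members against Foxp3-negative cells the share was 12.9% in the main setting and ran from 8.64% to 20.5%. In the spleen it was 10.2% and ran from 5.85% to 15.2%.

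Without mitochondrial and ribosomal totals the higher share of the calls fell from 53.5% to 42.3% for members between tissues, from 54.2% to 42.7% in the spleen and from 56.6% to 42.5% for Foxp3-negative cells between tissues.

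Among 884 values of list medians 829 stayed close to the main value, 51 moved further and 4 reversed. A reversal was counted only where the main median was 2-fold or more, so smaller medians that changed sign are among the 829 and the 51. The cell cycle list in the spleen, for example, went from -0.42 to 0.92 without cells above the 95th percentile of UMIs and is counted as moved. The resting list between tissues turned to a log2 ratio of 0.15 with a Cd4 UMI required, 0.41 with thinning and 0.22 with a minimum of 50 UMIs, and the cell cycle list in the allograft to -0.037 without cells with a C1q UMI. Of 3422 gene values 3086 stayed within the 95% interval of the main value, 303 moved outside it and 33 reversed, by the same limit of 2-fold. The checked genes gave 161 values 2-fold or more apart, a gene counting once for each comparison. Of these, 112 stayed so in every alternative that was run. Between tissues, Ctla4 was under 2-fold without Cd8 (0.97), Icos (0.94), Rgs1 (0.91), Stat5a (0.92) and Nfkb2 (0.79) with 2 or more Foxp3 UMIs, Nrp1 (-0.85), Tgfb1 (0.63), Lgals1 (0.75) and Ccr6 (-0.25) with thinning. Between allograft members and Foxp3-negative cells, Lrrc32 was at 0.57 without C1q, and Il1b turned to -1.22 with a Cd4 UMI required, -1.52 without cells above the 95th percentile, -1.72 without mixed cells and -1.535 without the deepest member too. Mki67 turned to -0.21 without Cd8, -0.24 without C1q, -0.29 with equal weight per cell and -0.063 with thinning. Lyz2 turned to 1.59 without C1q and 1.32 without scrublet calls. H2-Aa turned to -0.18 without cells above the 95th percentile. Without mixed cells, and then without the deepest member too, H2-Aa was at -1.77 and -1.58, Cst3 at -0.28 and -0.19, and Naaa and Plbd1 each at -0.62 and -0.44. In the spleen, the genes of red blood cell precursors turned with the mixed cells: without cells above the 95th percentile Blvrb was at 0.24, Ctse at 0.13, Hba-a1 at 0.50, Hba-a2 at 1.72 and Hbb-bs at 0.81, and without mixed cells Blvrb was at 0.45, Ctse at 0.18, Hba-a1 at 0.55, Hba-a2 at 1.77, Hbb-bs at 0.86 and Hbb-bt at 0.21. Hba-a2 was at 0.40 with equal weight per cell, and with thinning Blvrb was at 0.45 and Hba-a2 at 0.66. Gene values in the alternatives were taken also where a gene no longer counted as measured, and some rest on few UMIs. Without mixed cells this held for Hbb-bt, Hba-a1 and Hba-a2 in the spleen and for Il1b, Naaa and Plbd1 in the allograft.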
